A study of Homo sapiens with 24 samples.

Results

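Imprinted genes are read from the copy of 1 parent only, and they lie in clusters that a control region with parental DNA methylation governs. Bins of 1 kb were taken where they start inside 4 such clusters of GRCh38: on chromosome 11 (chr11:1900001-3000000, with H19, IGF2 and KCNQ1), chromosome 15 (chr15:23500001-26000000, with MAGEL2, SNRPN and UBE3A), chromosome 14 (chr14:100700001-101100000, with DLK1 and MEG3) and chromosome 20 (chr20:58800001-58920000, with GNAS). This gave 4117 of 2835235 bins, with 1100, 2497, 400 and 120 bins in the 4 domains in that order. The chromosome 15 grid has 2500 positions, of which 3 have no bin in the table.

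OG-seq was run on HAP1, a human line with a nearly haploid genome, in 4 genotypes: WT, MUTYH-/, OGG1-/ and DKO, which carries both knockouts. OGG1 is the glycosylase that cuts 8-oxoguanine (OG) out of DNA, and MUTYH removes an adenine that was paired with it. All cells are clones of the same line, and the DKO clones were made from an OGG1-/ clone, so they share its history. Fragments with OG were tagged with biotin, pulled down and sequenced beside input DNA, and the table holds 3 columns per genotype, which were not tied to clones or experiments. By the sample names, the OG libraries of each genotype came from fewer clones than there are columns. Some columns of every genotype therefore share a clone, though which ones is not known. The tests treated each column as a separate unit, so columns are not independent clones in them. P values therefore measure the spread between columns, which may be partly technical. A deposited value is the number of OG reads in a bin minus scaled input reads, and it was divided here by the mean over all bins of its column. On this scale, called the relative OG signal, 1 is the genome mean.

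At H19 and IGF2, a growth-restraining noncoding RNA and a growth factor, the control region lies upstream of H19 and is methylated on the paternal copy. At KCNQ1 the control region is the start of the noncoding RNA KCNQ1OT1, which silences its neighbours on the paternal copy, among them the cell cycle inhibitor CDKN1C. The start of SNURF and SNRPN governs the Prader-Willi and Angelman cluster. In neurons the long transcript SNHG14, the host of the SNORD116 and SNORD115 copies, silences UBE3A on the paternal copy only. DLK1, a ligand of the Notch family, is read from the paternal copy and the noncoding RNA MEG3 from the maternal copy. GNAS, the gene of the stimulatory G protein subunit, has several first exons with opposite imprints. HAP1 cells are nearly haploid, and the paper used cells of low passage number to keep them so. Most cells should therefore hold a single copy of each domain, not a paternal beside a maternal copy. The parent that this copy came from was not determined in these data, and neither ploidy nor methylation was measured.

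DNA methylation at CG dinucleotides carries the imprint, so sequences at starts that are described here are shown with each CG in capitals. They come from RefSeq (GRCh38.p14), run across the start and are read on the strand of the gene. The table of promoters matched 18 of 36 listed genes, and KCNQ1OT1 was not among them.
H19, chr11:2001217-2001516 (- strand): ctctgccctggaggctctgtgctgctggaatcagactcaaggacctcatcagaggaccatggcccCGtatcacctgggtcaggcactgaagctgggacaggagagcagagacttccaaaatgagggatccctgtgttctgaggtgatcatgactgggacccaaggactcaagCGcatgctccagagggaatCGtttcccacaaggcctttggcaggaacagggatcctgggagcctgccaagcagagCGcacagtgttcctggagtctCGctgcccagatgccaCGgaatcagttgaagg
SNRPN, the start shared with SNURF, chr15:24954737-24955036 (+ strand): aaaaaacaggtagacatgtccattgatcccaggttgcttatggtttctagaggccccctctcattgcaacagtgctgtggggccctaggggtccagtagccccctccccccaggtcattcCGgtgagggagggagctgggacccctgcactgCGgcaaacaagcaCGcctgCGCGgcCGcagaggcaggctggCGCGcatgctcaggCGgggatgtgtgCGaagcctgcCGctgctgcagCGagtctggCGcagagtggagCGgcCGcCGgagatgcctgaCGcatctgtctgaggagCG
MEG3, the first listed start, chr14:100825858-100826157 (+ strand): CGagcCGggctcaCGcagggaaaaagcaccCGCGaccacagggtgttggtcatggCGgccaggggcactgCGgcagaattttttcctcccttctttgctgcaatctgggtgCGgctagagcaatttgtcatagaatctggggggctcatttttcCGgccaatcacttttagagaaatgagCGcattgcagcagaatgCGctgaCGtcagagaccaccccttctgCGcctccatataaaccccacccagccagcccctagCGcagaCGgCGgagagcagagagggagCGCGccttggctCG
GNAS, the first listed start, chr20:58839498-58839797 (+ strand): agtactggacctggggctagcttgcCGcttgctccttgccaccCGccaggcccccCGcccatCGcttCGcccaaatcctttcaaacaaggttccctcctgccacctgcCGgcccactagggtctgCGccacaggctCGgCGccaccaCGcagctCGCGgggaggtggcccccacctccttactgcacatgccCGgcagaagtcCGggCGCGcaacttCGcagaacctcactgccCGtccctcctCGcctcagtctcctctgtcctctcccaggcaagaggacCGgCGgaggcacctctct
GNAS, the fourth listed start, chr20:58888163-58888462 (+ strand): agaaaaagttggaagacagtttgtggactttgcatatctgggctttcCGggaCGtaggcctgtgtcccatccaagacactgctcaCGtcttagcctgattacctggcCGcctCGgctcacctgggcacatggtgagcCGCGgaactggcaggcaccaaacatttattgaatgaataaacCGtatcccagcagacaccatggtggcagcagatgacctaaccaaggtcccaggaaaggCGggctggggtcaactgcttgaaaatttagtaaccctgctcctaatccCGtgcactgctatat
H19 has 6 CG dinucleotides in these 300 bases, SNRPN 18, MEG3 19, the first GNAS start 21 and the fourth 10, where the median of 35116 promoters was 14. The letters TGCCGC, which the imprint-keeping factor ZFP57 is known to bind when methylated, were searched on both strands. SNRPN holds 2 matches, MEG3 and the first GNAS start hold 1 each, and the other sequences hold none. In all, 16.7 % of all promoters hold the letters. A G-quadruplex pattern, written as 4 runs of GGG with 1 to 7 bases between them, was found on neither strand of the 5 sequences, and 24.9 % of all promoters hold it.

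OG and input reads were recovered from the deposited values as whole numbers in all bins, within a tolerance of 1e-08 reads. Columns held 59605795 to 113916768 OG reads, or 21.0 to 40.2 per bin, and 27.7 to 35.8 input reads per bin. Mean input over a domain was 0.915 to 1.2 times the genome mean. In all bins the relative OG signal rose with GC content, from 0.414 in the lowest of 20 GC strata to 1.65 in the highest. Columns differed in this slope: the highest stratum was at 1.13 in the first DKO column and at 1.36 to 1.96 in the other columns.

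The first question was whether the domains differ from the genome and from each other. The chromosome 11 domain had a relative OG signal of 1.32 ± 0.177 (SD over 12 columns), and 11 of 12 columns were above 1. The GNAS domain followed with 1.28 ± 0.184 and the DLK1 and MEG3 domain with 1.2 ± 0.116. The Prader-Willi and Angelman domain was lowest at 0.917 ± 0.0391, below 1 in all 12 columns. GC contents stood in the same order, at 53.9 %, 47.7 %, 47.3 % and 41.0 %.

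By column, the relative OG signal of the chromosome 11 domain was 1.35, 1.46 and 1.35 for WT, 1.53, 1.18 and 1.21 for MUTYH-/, 1.33, 1.54 and 1.41 for OGG1-/ and 0.972, 1.47 and 1.1 for DKO. The chromosome 15 domain read 0.888, 0.894 and 0.969 for WT, 0.954, 0.885 and 0.894 for MUTYH-/, 0.887, 0.977 and 0.859 for OGG1-/ and 0.927, 0.909 and 0.959 for DKO. On chromosome 14 the columns read 1.25, 1.19 and 1.27 for WT, 1.36, 1.12 and 1.16 for MUTYH-/, 1.28, 1.39 and 1.09 for OGG1-/ and 1.04, 1.16 and 1.05 for DKO. For GNAS they were 1.26, 1.4 and 1.53 for WT, 1.18, 0.870 and 1.4 for MUTYH-/, 1.1, 1.47 and 1.25 for OGG1-/ and 1.19, 1.42 and 1.22 for DKO. Every column of the chromosome 15 domain lay below every column of the chromosome 14 domain, and the first DKO column was the lowest of the chromosome 11 domain.

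Domain pairs were compared with exact two-sided sign flips over the 12 columns, whose smallest p is 0.000488, and p values were adjusted over 6 pairs. The chromosome 15 domain was lower than chromosome 11 by 0.407 in 12 of 12 columns (adjusted exact p = 0.00146). Against the chromosome 14 domain the difference was -0.279 (adjusted exact p = 0.00146), and against GNAS -0.359 (adjusted exact p = 0.00195). Chromosome 11 was above chromosome 14 by 0.128 in 11 of 12 columns (adjusted exact p = 0.00366). The neighbours chromosome 11 and GNAS (difference 0.0482 ± 0.194 SD, adjusted exact p = 0.402) and GNAS and chromosome 14 (adjusted exact p = 0.186) did not differ beyond their spread.

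The order changed when each bin was divided by the mean of bins with like GC content in its column. On this GC-scaled signal the chromosome 11 domain was at 0.878 ± 0.0548 and chromosome 15 at 0.891 ± 0.0468, both below 1 in 12 of 12 columns. Chromosome 14 was at 0.962 ± 0.0865 and GNAS at 0.971 ± 0.143, below 1 in 8 and 7 of 12 columns. The difference of chromosome 11 and chromosome 15 became -0.0132 (adjusted exact p = 0.685). Of the 6 pairs, chromosome 15 against chromosome 14 alone kept an adjusted exact p under 0.05 on both scales (0.0293 on the GC-scaled signal, a difference of -0.0706 with 10 of 12 columns lower). Read as the ratio of OG to input reads, chosen after the values were seen, chromosome 11 stood at 1.09 ± 0.0466 times the genome ratio and chromosome 15 at 0.992 ± 0.0129.

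**Figure D1:**
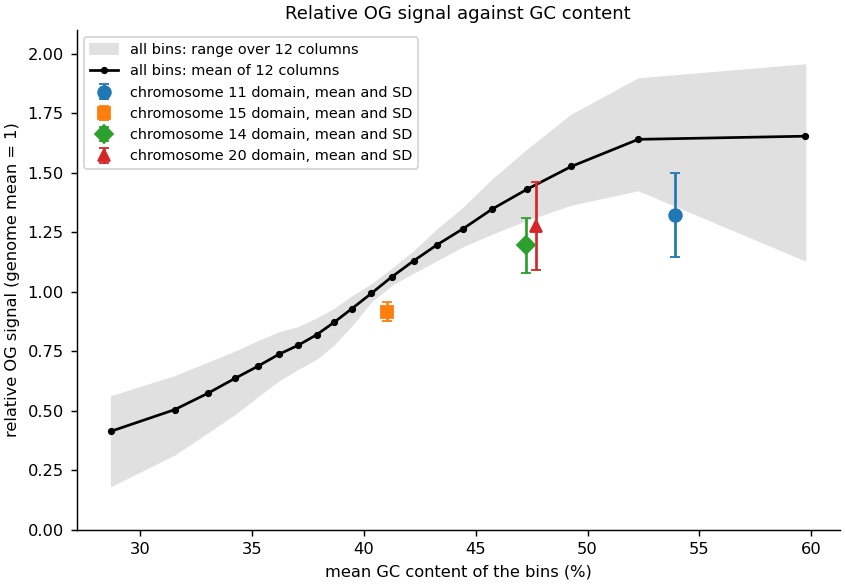
Relative OG signal (y axis, genome mean of 1) against the mean GC content of bins (x axis, percent), with all bins in 20 strata as a black line (mean of 12 columns) in a grey band (lowest to highest column) and each domain as a point with its SD over 12 columns. All 4 domain points lie below the line of all bins, and the chromosome 11 point at 53.9 % GC lies at 1.32. A point averages bins of mixed GC content, so its distance from the line is not the GC-scaled signal. That signal was 0.962 for chromosome 14 and 0.971 for GNAS, above 1 in 4 and 5 of 12 columns.

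Each domain was then set against the other bins of its chromosome. The chromosome 11 domain was 0.3 above the rest (1.02 ± 0.0152; adjusted exact p = 0.00130, 11 of 12 columns), but -0.107 from it on the GC-scaled signal (adjusted exact p = 0.00195). The chromosome 14 domain was 0.199 above its rest in 12 of 12 columns (adjusted exact p = 0.000977), and -0.0298 from it on the GC-scaled signal (adjusted exact p = 0.295). For GNAS the difference of 0.0857 stayed within the spread (adjusted exact p = 0.123). The chromosome 15 domain was -0.594 from its rest, where 28 megabases (chr15:61000001-89000000) had 2.1 times the genome's mean input and a relative OG signal of 2.32. HAP1 is known to carry an extra copy of a stretch of chromosome 15. Without those megabases, an alternative added after the data had been seen, the rest was at 1.04 ± 0.00683 and the domain -0.124 from it, lower in 12 of 12 columns.

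The next question was whether losing a glycosylase moved the signal of a domain. No difference between a knockout and WT passed the exact two-sided permutation test of 3 columns against 3, which cannot go below p = 0.1, and each of the 12 adjusted p values was 0.8. In the chromosome 11 domain the means were 1.38 ± 0.0672 for WT, 1.31 ± 0.194 for MUTYH-/, 1.42 ± 0.105 for OGG1-/ and 1.18 ± 0.258 for DKO (SD, n = 3). DKO differed from WT there by -0.203 (exact p = 0.4), and by -0.0980 without the first DKO column, whose slope with GC content was the flattest. Without the second DKO column it was -0.347 (exact p = 0.1, the smallest possible with 2 columns against 3), so its size rested on single columns. On the GC-scaled signal the difference was -0.0924 (exact p = 0.2).

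In the chromosome 14 domain, DKO had 1.08 ± 0.0708 and WT 1.24 ± 0.0433, and no DKO column reached the lowest WT column. This difference of -0.156 had the smallest exact p the design allows, 0.1 (adjusted 0.8), and was the only one of 12 without overlap. On the GC-scaled signal the DKO difference was -0.0988 (exact p = 0.1). Its columns read 0.963, 0.832 and 0.925 for DKO and 1.04, 0.975 and 1.01 for WT, again without overlap. On the relative OG signal the single knockouts were close to WT in this domain, with 1.21 ± 0.131 in MUTYH-/ and 1.25 ± 0.152 in OGG1-/. The chromosome 15 domain varied least, from 0.908 ± 0.0620 in OGG1-/ to 0.932 ± 0.0253 in DKO, with 0.917 ± 0.0452 in WT and 0.911 ± 0.0371 in MUTYH-/. In the GNAS domain the means were 1.4 ± 0.132 for WT, 1.15 ± 0.268 for MUTYH-/, 1.27 ± 0.188 for OGG1-/ and 1.28 ± 0.126 for DKO, and the second MUTYH-/ column was alone below 1.

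**Figure D2:**
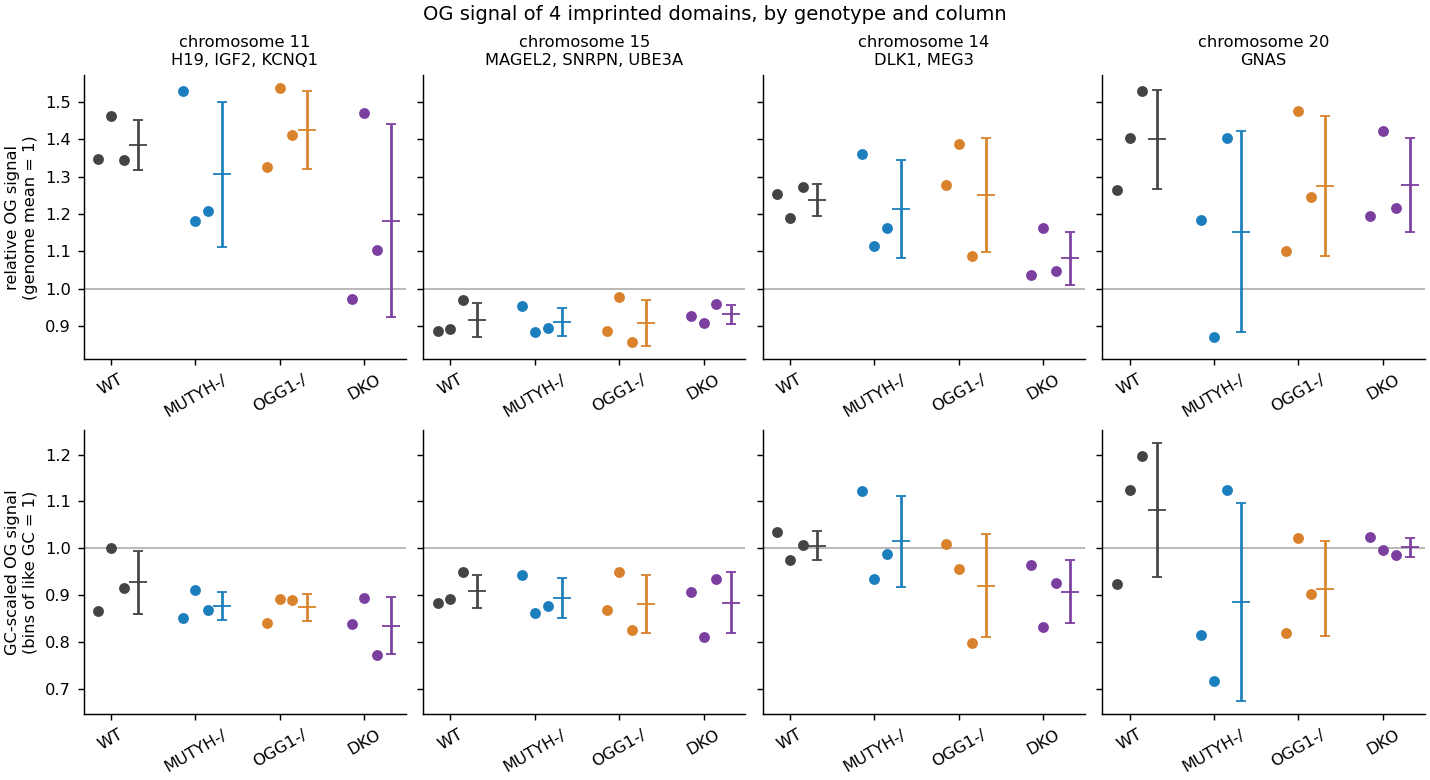
Each point is 1 column, with the mean and SD of 3 columns beside it, for the relative OG signal (top row, genome mean of 1) and the GC-scaled signal (bottom row, mean of bins with like GC of 1), by domain and genotype (x axis). WT and knockout columns overlap in all panels of the top row except DKO in the chromosome 14 domain, and all chromosome 15 columns lie below 1 in both rows.

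Windows of 20 kb gave the pattern inside the domains. Windows needed at least 10 bins and a mean above 0 in every column, which left out mostly windows of chromosome 15. Of 192 windows kept, 54 were in chromosome 11, 112 in chromosome 15, 20 in chromosome 14 and 6 in GNAS, and the median signal over all windows of the genome was 0.969. Chromosome 11 windows had a median of 1.41 and chromosome 15 windows 0.916. At or above the genome's 95th percentile of 1.68, which 5 % of all windows reach, were 5 windows of chromosome 11, 1 of chromosome 15 and none of the other domains.

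In the chromosome 11 domain the highest window was chr11:2900001-2920000 over SLC22A18, a transporter gene, at 1.85 ± 0.539 (12 columns, 61.1 % GC). It measured 1.8 ± 0.315 for WT, 1.9 ± 0.516 for MUTYH-/, 2.25 ± 0.515 for OGG1-/ and 1.46 ± 0.702 for DKO. The lowest window, chr11:2620001-2640000, lies in the transcript of KCNQ1OT1 and inside KCNQ1, a potassium channel gene, at 0.574 ± 0.344 and 37.9 % GC. There WT had 0.764 ± 0.538 and DKO 0.511 ± 0.154, so the genotypes overlapped. The GC-scaled signal of this window was 0.660, below bins of like GC.

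The highest window of chromosome 15 was chr15:25180001-25200000 over copies of SNORD115, at 1.7 ± 0.514 and 58.6 % GC. By genotype it was 1.26 ± 0.523 for WT, 1.61 ± 0.685 for MUTYH-/, 2.0 ± 0.134 for OGG1-/ and 1.93 ± 0.417 for DKO. Its input was 1.08 times the genome mean and its GC-scaled signal 1.05, close to bins of like GC. The lowest window kept, chr15:24700001-24720000 in the noncoding gene PWRN1, was at 0.475 ± 0.239, with 0.799 ± 0.267 in OGG1-/ and 0.384 ± 0.103 in WT. Its GC-scaled signal was 0.708, below bins of like GC.

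On chromosome 14 the window chr14:100800001-100820000 over MEG3 was highest at 1.56 ± 0.410 (51.4 % GC). The lowest was chr14:100920001-100940000 over MEG8 and the first SNORD113 copies, at 0.613 ± 0.366 (34.4 % GC), with 0.738 ± 0.381 for WT, 0.979 ± 0.303 for MUTYH-/, 0.350 ± 0.0596 for OGG1-/ and 0.384 ± 0.298 for DKO. Within the GNAS domain the signal ran from 0.974 ± 0.219 in chr20:58880001-58900000, inside GNAS, to 1.43 ± 0.512 in chr20:58800001-58820000, which the end of the antisense gene GNAS-AS1 overlaps for a short stretch.

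**Figure D3:**
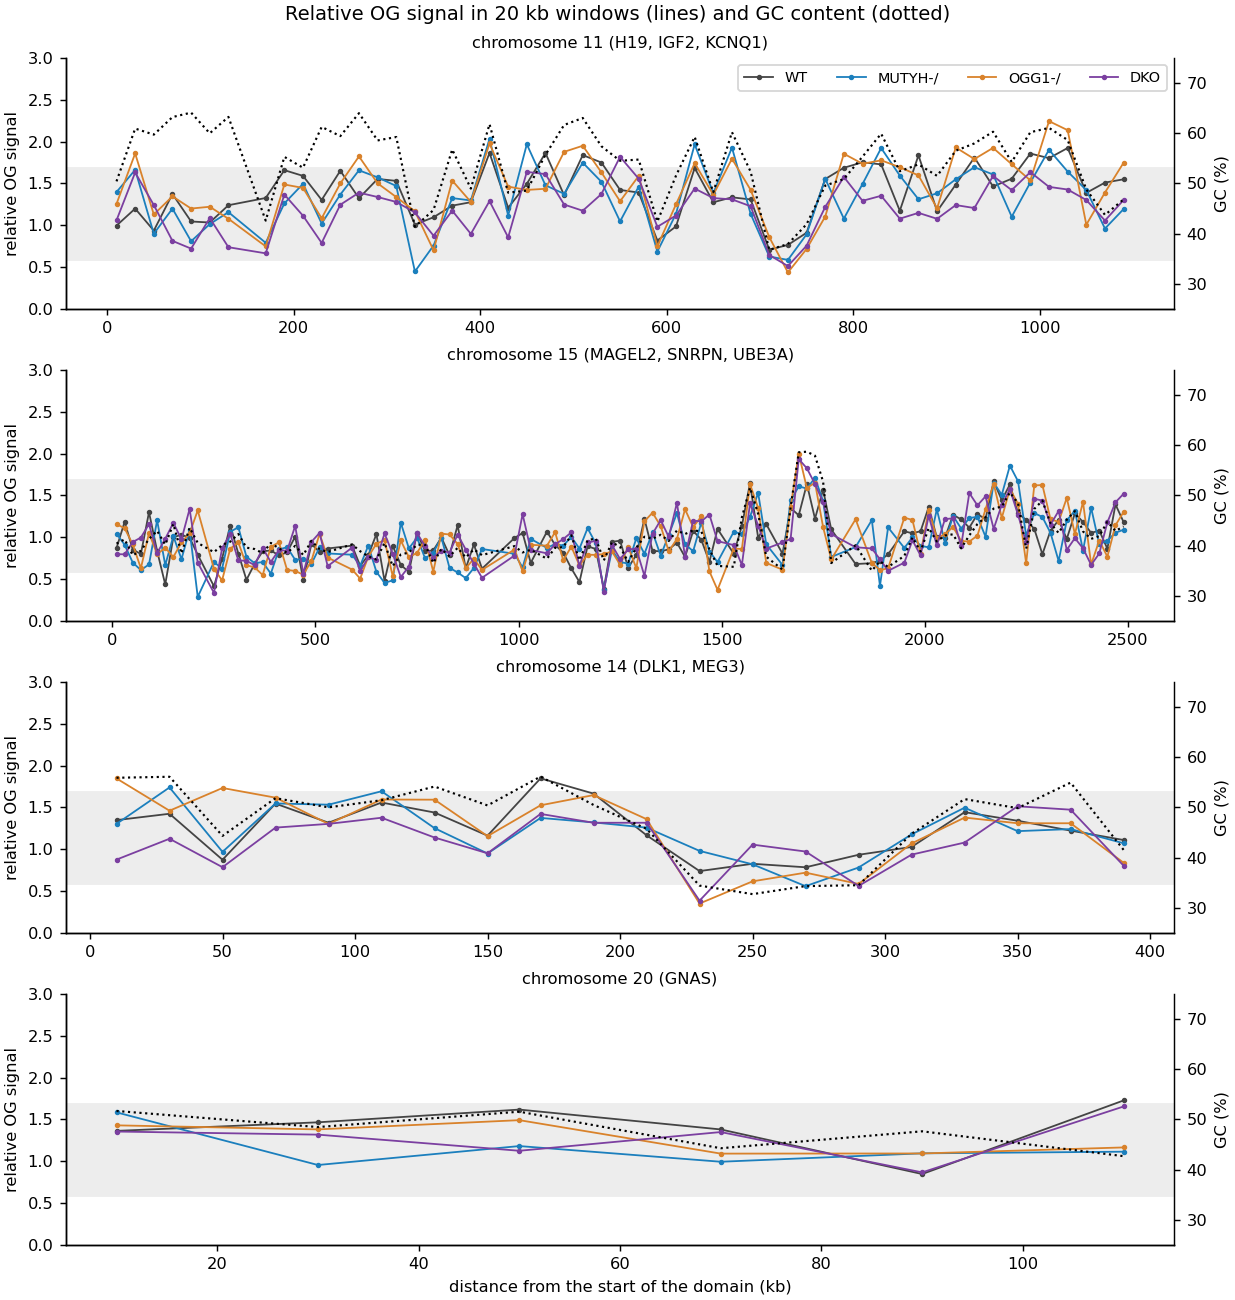
Mean relative OG signal of 20 kb windows in 3 columns per genotype (coloured lines, left axis) against the distance from the start of each domain (kb), with GC content dotted on the right axis in percent and a grey band from the 5th to the 95th percentile of all windows. Signal and GC content are low together in the trough over KCNQ1OT1 (0.574) and the trough over MEG8 (0.613), and high together at the peak over SNORD115 (1.7). The GC-scaled signals of these windows, which are not plotted, were 0.660, 0.978 and 1.05, so the KCNQ1OT1 trough was also low beside bins of like GC.

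Small RNA genes in the domains were described as sets of bins. The 30 SNORD116 copies (chr15:25051477-25108352), box C/D small nucleolar RNAs lost in Prader-Willi syndrome, lay in 32 bins with a relative OG signal of 1.43 ± 0.252. The 49 SNORD115 copies (chr15:25159221-25269858) had 1.52 ± 0.3 in 53 bins, and both sets were above 1 in 12 of 12 columns, in a domain that was below 1 in all of them. Their GC contents were 48.3 % and 55.8 %, and their GC-scaled signals 1.01 and 0.997. Copies resemble one another, so reads can be placed at the wrong copy, and their input was 1.07 and 1.07 times the genome mean.

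On chromosome 14 the 39 SNORD113 and SNORD114 copies, small nucleolar RNAs of the MEG8 transcript, had 0.750 ± 0.241 in 36 bins of 33.4 % GC, and 1 of 12 columns was above 1. The 53 microRNA genes of the domain had 1.49 ± 0.203 in 41 bins of 52.6 % GC. MicroRNA bins were at 1.55 ± 0.0199 in WT and 1.29 ± 0.153 in MUTYH-/ (exact p = 0.1, the smallest possible). In the other sets the exact p of a knockout against WT was 0.3 or more.

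Bins rich in CpG, with at least 40 CG in 1 kb, made up 141 member bins. They had a relative OG signal of 1.21 ± 0.308 over the 12 columns, where all 47262 such bins had 1.37 ± 0.271. By genotype the CpG-rich member bins were at 1.37 ± 0.140 for WT, 1.12 ± 0.277 for MUTYH-/, 1.38 ± 0.176 for OGG1-/ and 0.955 ± 0.450 for DKO. The DKO columns read 0.498, 1.4 and 0.970, and no knockout passed the exact permutation test (DKO p = 0.2). Over the genome such bins were at 1.54 in WT and 1.1 in DKO. Their input was low as well, at 0.680 times the genome mean in the domains and 0.832 in all, and its part in the result was not tested.

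Genes of known imprint were read next, as means over the bins of the gene body. H19 had 1.5, 1.4 and 0.729 for WT, 1.49, 1.95 and 0.339 for MUTYH-/, 1.41, 1.13 and 0.275 for OGG1-/ and 0.778, 1.38 and 0.696 for DKO. IGF2 had 1.28, 1.56 and 1.33 for WT, 1.35, 1.01 and 1.23 for MUTYH-/, 1.03, 1.62 and 1.23 for OGG1-/ and 0.822, 1.42 and 0.796 for DKO. H19 spans 10 bins and spread widely within every genotype (SD over 12 columns 0.519), while IGF2 with 30 bins spread less (0.265).

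KCNQ1OT1 had 1.04, 1.16 and 1.15 for WT, 0.901, 1.04 and 0.896 for MUTYH-/, 0.890, 0.939 and 1.1 for OGG1-/ and 1.22, 0.795 and 0.829 for DKO over 104 bins. CDKN1C, the cell cycle inhibitor of the same cluster, had 0.378, 0.910 and 1.42 for WT, 0.390, 0.737 and 0.0509 for MUTYH-/, -0.0324, 0.323 and 1.16 for OGG1-/ and -0.0356, 1.14 and 0.162 for DKO over 3 bins of 68.0 % GC. CDKN1C was the lowest of the listed bodies with a mean of 0.550 ± 0.507, and each knockout overlapped WT. At KCNQ1OT1 all MUTYH-/ columns lay below all WT columns, by a margin smaller than the rounding of the values, and limma gave an adjusted p of 1.0.

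MAGEL2, a gene of ubiquitin ligase regulation in the Prader-Willi cluster, had 1.21, 1.19 and 1.63 for WT, 1.65, 0.306 and 2.29 for MUTYH-/, 0.925, 1.21 and 2.57 for OGG1-/ and 0.389, 1.44 and 2.0 for DKO. SNRPN, which codes for a splicing protein, had 0.839, 0.802 and 0.956 for WT, 0.992, 0.912 and 1.07 for MUTYH-/, 0.975, 1.02 and 1.24 for OGG1-/ and 1.23, 1.12 and 1.07 for DKO. UBE3A, the ubiquitin ligase lost in Angelman syndrome, had 0.738, 0.556 and 0.849 for WT, 0.748, 0.7 and 1.06 for MUTYH-/, 0.876, 0.596 and 0.485 for OGG1-/ and 0.496, 0.605 and 0.951 for DKO. In SNRPN all OGG1-/ and all DKO columns were above all WT columns, with log2 fold changes of 0.28 (SE 0.18) and 0.36 (SE 0.18), and neither passed in limma (adjusted p = 1.0 and 0.964). Every knockout overlapped WT in UBE3A and MAGEL2.

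DLK1 had 0.918, 0.385 and 2.0 for WT, 2.22, 1.62 and 1.47 for MUTYH-/, 1.06, 1.9 and 1.41 for OGG1-/ and 1.29, 1.19 and 0.943 for DKO. MEG3 had 1.35, 1.27 and 1.48 for WT, 1.58, 1.39 and 1.27 for MUTYH-/, 1.45, 1.75 and 1.09 for OGG1-/ and 1.1, 1.41 and 1.06 for DKO over 83 bins. GNAS had 1.08, 1.48 and 1.61 for WT, 1.19, 0.934 and 1.22 for MUTYH-/, 1.03, 1.49 and 1.25 for OGG1-/ and 1.08, 1.38 and 1.2 for DKO over 73 bins. The columns of each of these genes overlapped between WT and every knockout, and DLK1 with 14 bins spread most.

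Among all listed bodies the mean over 12 columns ran from CDKN1C up to TSSC4, at 2.08 ± 0.897, which lies in the KCNQ1 cluster and spans 4 bins. The median of all genes in the genome was 1.19. Other high bodies of the chromosome 11 domain were TSPAN32, a tetraspanin gene, at 1.85 ± 0.420 and SLC22A18 at 1.79 ± 0.481, and INS, the insulin gene, had 1.65 ± 0.674. KCNQ1 itself, over 406 bins, was at 1.32 ± 0.139, and its stretch under KCNQ1OT1 was lower, with 43.4 % against 51.6 % GC.

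In the Prader-Willi and Angelman cluster the highest listed body was MAGEL2, followed by ATP10A, a gene of a lipid flippase, at 1.28 ± 0.201. The long noncoding genes were lower, with PWRN1 at 0.754 ± 0.0446 over 723 bins and SNHG14 at 0.981 ± 0.0894 over 443 bins. NDN, the gene of necdin, had 0.793 ± 0.598 over 3 bins. On chromosome 14 RTL1, a gene that came from a retrotransposon, had 1.45 ± 0.350, MEG9 1.33 ± 0.252 and MEG8 0.954 ± 0.0971, and in the GNAS cluster GNAS-AS1 had 1.34 ± 0.326. On the GC-scaled signal CDKN1C was still lowest at 0.323 and TSSC4 highest at 1.24. The highest GC stratum spans 54.5 to 86 % with a mean of 59.7 %, so CDKN1C at 68.0 % GC is matched only coarsely. All CpG-rich bins of the genome, with at least 40 CG in 1 kb, had a GC-scaled signal of 0.824.

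All genes of the annotation were tested with limma on log2 of the value, set to at least 0, plus a pseudocount of 0.1. The pseudocount shrinks changes of low genes, but a single column near or below 0 can enlarge or reverse a fold change. The start of ASCL2 had means of 1.17 in WT and 1.16 in MUTYH-/, but a log2 fold change of 0.84. Of the listed imprinted or neighbouring genes, 35 overlap the domains. For gene bodies, 4, 4 and 7 of 60338 genes passed an adjusted p of 0.05 in MUTYH-/, OGG1-/ and DKO (0.00663 %, 0.00663 % and 0.0116 %), and none of the 298 genes in the domains did. At an unadjusted p under 0.05, 19, 18 and 14 genes of the domains passed, or 6.38 %, 6.04 % and 4.7 %, beside 4.88 %, 4.44 % and 5.27 % of all genes. None of the 35 listed genes was among them. Overlapping genes share bins, so the counts of genes are not counts of separate regions. Listed bodies were above WT in 13, 15 and 11 cases and below it in 22, 20 and 24, without regard to size. The median log2 fold change of the listed bodies stood at -0.15, -0.02 and -0.19 for the knockouts in the same order, against -0.01, 0.04 and -0.03 over all genes.

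Gene starts were read as the bins within 2 kb of the first base. No start of the domains passed an adjusted p of 0.05, where 0 (0 %), 0 (0 %) and 2 (0.00332 %) of 60299 starts did in limma in MUTYH-/, OGG1-/ and DKO. At an unadjusted p under 0.05 there were 27, 12 and 16 of 296 starts, or 9.12 %, 4.05 % and 5.41 %, against a background of 4.94 %, 4.09 % and 5.58 %. In MUTYH-/, 3 of the 35 listed starts were among them: IGF2, IGF2-AS and CD81. They are named because they passed, after their values were seen. Starts that lie close together share bins, so the counts of starts are not counts of separate regions.

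The start of IGF2-AS, the antisense transcript of IGF2, had 1.17, 1.94 and 1.43 for WT, -0.101, 0.403 and 0.0657 for MUTYH-/, 1.18, 0.140 and 0.885 for OGG1-/ and 0.992, 1.15 and 0.402 for DKO. The start of IGF2, which shares bins with it, had 1.0, 1.79 and 1.04 for WT, 0.419, 0.264 and -0.135 for MUTYH-/, 1.07, 0.240 and 1.29 for OGG1-/ and 0.310, 0.815 and 0.0402 for DKO. At both, all 3 MUTYH-/ columns lay below all WT columns, by a log2 fold change of -2.97 (SE 1.02) at IGF2-AS (limma adjusted p = 0.966) and -2.32 (SE 1.09) at IGF2 (limma adjusted p = 0.966). CD81, a tetraspanin gene, had 2.24 ± 0.658 in WT and 0.727 ± 0.637 in MUTYH-/ (log2 fold change -1.72 (SE 0.63), limma adjusted p = 0.966). Input at these starts was 0.560, 0.456 and 0.742 times the genome mean, and its part was not tested.

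Starts were read in 5 bins each, beginning with H19, SNURF and SNRPN, and MEG3, whose sequences are printed above. These are RefSeq starts, at chr11:2001266 for H19 and chr14:100826108 for MEG3. The limma test of gene starts used GENCODE starts, which lie elsewhere for these genes, at chr11:2004552 for H19 and chr14:100779410 for MEG3. H19 had 0.752, 1.47 and 1.14 for WT, 2.06, 2.42 and 0.748 for MUTYH-/, 1.84, 1.44 and 0.463 for OGG1-/ and 0.936, 1.73 and 0.735 for DKO. The SNURF and SNRPN start had 0.830, 0.218 and 1.68 for WT, 1.23, 1.12 and 1.13 for MUTYH-/, 0.9, 0.729 and 2.1 for OGG1-/ and 0.808, 1.04 and 0.444 for DKO. MEG3 had 1.29, -0.00284 and 1.92 for WT, 1.27, 0.164 and 0.295 for MUTYH-/, 1.48, 2.86 and 0.268 for OGG1-/ and 0.572, 1.0 and 0.828 for DKO. With 5 bins a single column of these RefSeq starts of H19, SNURF and SNRPN, and MEG3 ranged from -0.00284 to 2.86, and every knockout overlapped WT at each of them. At the GENCODE start of MEG3 the columns read 1.32, 1.68 and 1.35 for WT and 2.03, 2.57 and 2.44 for MUTYH-/. All MUTYH-/ columns lay above all WT columns at that start (limma adjusted p = 0.966), while OGG1-/ and DKO overlapped WT.

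The KCNQ1OT1 start (chr11:2700003 in GENCODE, − strand) had 1.92, -0.287 and 1.97 for WT, 1.11, 2.13 and 0.544 for MUTYH-/, 1.24, 0.598 and 1.9 for OGG1-/ and 0.777, 1.93 and 0.967 for DKO. Its mean of 1.23 ± 0.752 was near that of H19 (1.31 ± 0.614), SNURF and SNRPN (1.02 ± 0.506) and MEG3 (0.996 ± 0.834), with gaps smaller than the SD of any of them.

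GNAS starts differed along the gene. The first listed start (chr20:58839748) had 1.65 ± 0.795, the second 1.61 ± 0.889 and the third 1.61 ± 0.649. The fourth (chr20:58888413) had 0.848 ± 0.672, the fifth 0.679 ± 0.659, and the canonical GENCODE start (chr20:58891421) 0.499 ± 0.387. Input fell in step, from 1.02 times the genome mean at the first start to 0.370 at the canonical start, where 91.6 CG per kb were counted, and its part was not tested. The first start and the second share bins, and so do the fourth, the fifth and the canonical start in part.

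By column, the first GNAS start had 3.43, 2.1 and 1.78 for WT, 1.68, 0.889 and 1.39 for MUTYH-/, 2.54, 0.719 and 2.05 for OGG1-/ and 0.988, 1.24 and 0.957 for DKO. All WT columns there were above all MUTYH-/ and all DKO columns, with an exact p of 0.1 each, the smallest possible, and not adjusted over the starts described. The same order was seen at the fifth start (exact p = 0.1 each). It had 1.1, 1.08 and 1.44 for WT, 0.386, 0.458 and 0.558 for MUTYH-/ and -1.15, 0.555 and 0.864 for DKO, while OGG1-/ overlapped WT. The canonical start had 0.597, 0.468 and 1.55 for WT, 0.877, 0.575 and 0.220 for MUTYH-/, 0.284, 0.292 and 0.220 for OGG1-/ and 0.358, 0.193 and 0.352 for DKO. OGG1-/ and DKO columns did not overlap WT there (exact p = 0.1 in both), and limma gave adjusted p values of 1.0 and 0.934.

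**Figure D4:**
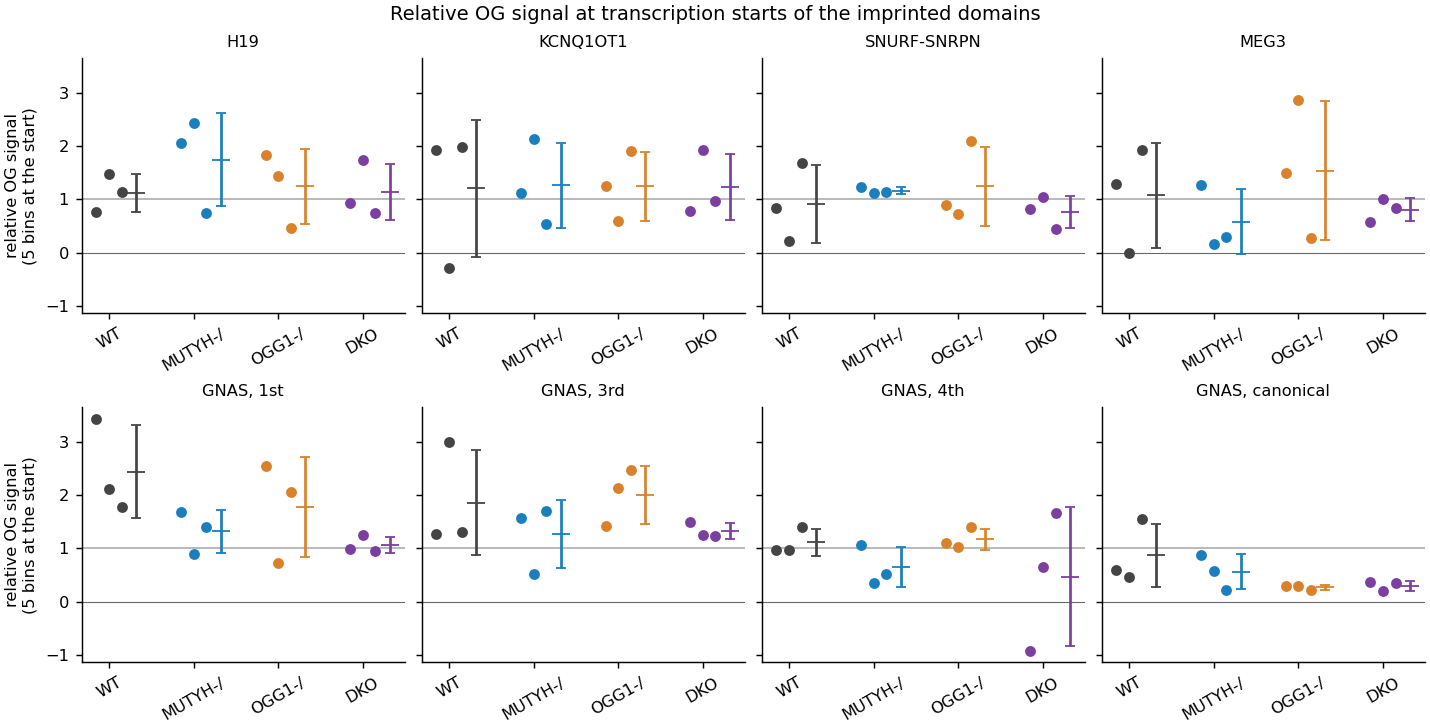
Relative OG signal (y axis, genome mean of 1) in the 5 bins at transcription starts of the domains, with 1 point per column and the mean and SD of 3 columns beside them, by genotype (x axis). Of the starts plotted, the GNAS canonical start lies lowest at 0.499, and the first GNAS start lies highest at 1.65, with its WT columns above all columns of MUTYH-/ and DKO.

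Bins with high signal were called OG-enriched bins (OG-EBs) where at least 2 of 3 columns of a genotype reached the 95th percentile of their column. In the domains there were 67 (1.63 %) for WT, 52 (1.26 %) for MUTYH-/, 65 (1.58 %) for OGG1-/ and 41 (0.996 %) for DKO, where 1.34 %, 1.33 %, 1.54 % and 1.3 % of all bins were called. The chromosome 11 domain held most: 37 (3.36 %) for WT, 27 (2.45 %) for MUTYH-/, 35 (3.18 %) for OGG1-/ and 19 (1.73 %) for DKO. On the deposited value the chromosome 15 domain was below the background in every genotype, with 18 (0.721 %) for WT, 14 (0.561 %) for MUTYH-/, 20 (0.801 %) for OGG1-/ and 15 (0.601 %) for DKO. Ranked by the log2 ratio of recovered OG to input reads, it held 1.04, 0.841, 1.08 and 0.601 % in the same order. All bins were then at 0.830, 0.899, 0.935 and 0.855 %, so it was above them in WT and OGG1-/. On that ratio the 4 domains together held 55, 74, 86 and 43 OG-EBs, or 1.34, 1.8, 2.09 and 1.04 %.

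For chromosome 11 the exact (Clopper-Pearson) 95 % interval of the share was 2.38 to 4.61 % in WT and 1.04 to 2.68 % in DKO, and it covers counting error only. Chromosome 14 held 9 (2.25 %), 8 (2.0 %), 8 (2.0 %) and 6 (1.5 %) OG-EBs in the same order of genotypes, and GNAS 3, 3, 2 and 1. When bins were ranked after centring within GC strata, 32, 23, 29 and 23 member bins were called, or 0.777, 0.559, 0.704 and 0.559 %, beside 1.04, 1.07, 1.12 and 1.03 % of all bins in the same order. No member bin was an OG-EB in all 4 genotypes, where 0.0313 % of all bins were. The 0 of 4117 bins allows a share of up to 0.0729 %.

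OG-differentially enriched regions (OG-DERs) were bins whose limma p did not exceed 0.01 and whose log2 fold change against WT was larger than 0.5 in size, on log2 of the value plus a pseudocount of 1. In MUTYH-/ the domains held 13 gains and 10 losses among 4077 tested bins, or 0.319 % and 0.245 %, beside 0.3 % and 0.322 % of all bins. OGG1-/ had 6 gains and 12 losses, or 0.147 % and 0.294 %, beside 0.299 % and 0.256 %. DKO had 6 gains and 16 losses, or 0.147 % and 0.392 %, beside 0.296 % and 0.312 %. Of the 16 DKO losses, 11 lay in the chromosome 11 domain (1.0 % of its bins). With column number 1 of every genotype left out, the first DKO column among them, 11 DKO calls came out, and with number 2 left out MUTYH-/ had 11.

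No member bin passed an adjusted p of 0.05, the smallest being 0.985 in MUTYH-/, where 14, 7 and 39 bins of the genome did in MUTYH-/, OGG1-/ and DKO (0.0005 %, 0.00025 % and 0.00139 %). At an unadjusted p under 0.05 there were 195, 171 and 158 member bins (4.78 %, 4.19 % and 3.88 %), beside 4.39 %, 4.1 % and 4.31 % of all bins.

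The calls fell on 58 bins. Bins called in 2 knockouts are named here, after their values were seen. Both calls rest on the same WT columns, so their number is not read as a result. Values are given in OG reads left after subtraction (mean ± SD, n = 3). In TRPM5, an ion channel gene, chr11:2428001-2429000 had -0.0779 ± 3.77 in WT, 25.9 ± 11.1 in MUTYH-/ and 28.0 ± 13.5 in DKO. In KCNQ1, chr11:2829001-2830000 had 13.8 ± 6.37 in WT, -7.1 ± 5.34 in MUTYH-/ and -11.2 ± 10.5 in DKO. The bin chr15:25183001-25184000 in SNHG14, the host of the snoRNA copies, had -6.39 ± 4.38 in WT, 23.8 ± 0.698 in MUTYH-/ and 20.2 ± 7.12 in OGG1-/. The others, chr15:24687001-24688000 in PWRN1 and chr15:25636001-25637000, were gains in MUTYH-/ and DKO, from -2.63 ± 5.07 and -3.38 ± 3.6 in WT to 20.5 ± 9.69 and 18.7 ± 6.2 in DKO.

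Windows of 20 kb were tested against WT in limma on log2 values with no pseudocount. None of the 192 windows of the domains passed an adjusted p of 0.05 in any knockout, and neither did any of 132050 windows in the genome (0 % in each). At an unadjusted limma p under 0.05 there were 6 windows for MUTYH-/ (3.12 %), 6 for OGG1-/ (3.12 %) and 9 windows for DKO (4.69 %), where 4.57 %, 4.54 % and 4.67 % of all windows did. In DKO, 42 of 54 chromosome 11 windows and 15 of 20 chromosome 14 windows were below WT, with median log2 fold changes of -0.27 and -0.23, beside -0.00140 for all windows. These domains have 53.9 % and 47.3 % GC, where all bins have 40.9 %. The highest GC stratum of the genome was at 1.13, 1.82 and 1.52 in the DKO columns and 1.71, 1.65 and 1.7 in WT. Over whole domains, DKO minus WT on the GC-scaled signal was -0.0924 for chromosome 11 (exact p = 0.2) and -0.0988 for chromosome 14 (exact p = 0.1). The part of GC content in the shift of the windows was not tested. Chromosome 15 windows had medians of -0.03, -0.04 and -0.02 in MUTYH-/, OGG1-/ and DKO.

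The window with the smallest p in each knockout lay on chromosome 15. In MUTYH-/ it was chr15:23700001-23720000, which no annotated gene overlaps, with 0.882, 0.893 and 0.597 in WT and 0.402, 0.110 and 0.346 in MUTYH-/ (log2 fold change -1.65 (SE 0.58), limma adjusted p = 1.0). For OGG1-/ it was chr15:24980001-25000000 over SNHG14 and the snoRNA genes SNORD107, SNORD64 and SNORD108, with 1.07, 1.31 and 0.913 in WT and 0.653, 0.284 and 0.173 in OGG1-/ (log2 fold change -1.77 (SE 0.54), limma adjusted p = 1.0). For DKO it was chr15:24800001-24820000 in PWRN1, with 1.2, 1.07 and 1.38 in WT and 0.734, 0.561 and 0.317 in DKO (log2 fold change -1.26 (SE 0.43), limma adjusted p = 1.0). In each of the 3 windows the knockout columns lay below the WT columns, and each was picked from 192 windows for its p.

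**Figure D5:**
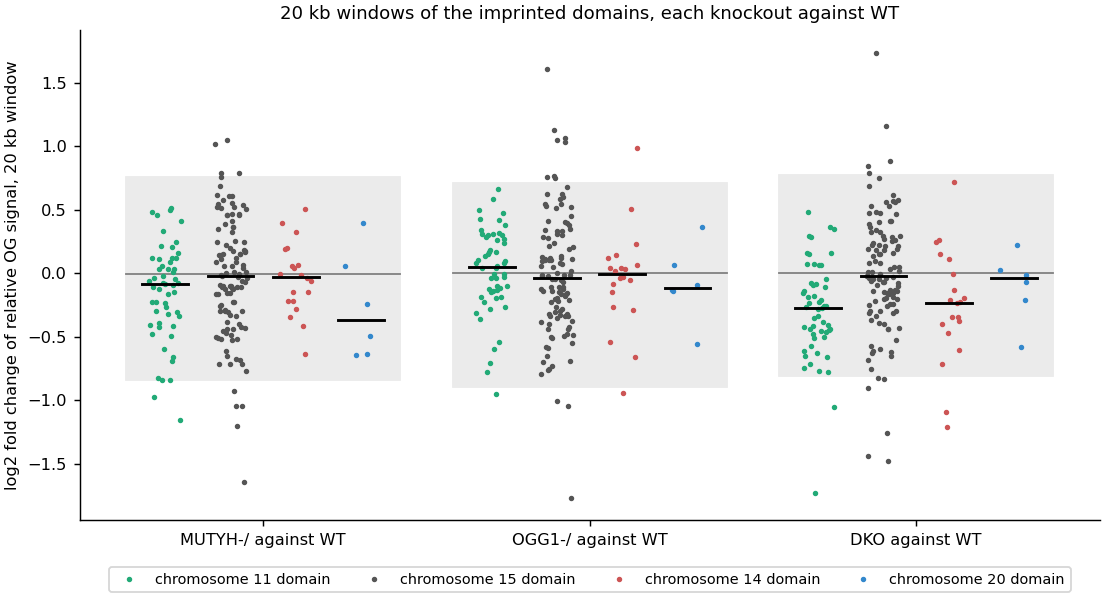
Each point is a 20 kb window of a domain, with its log2 fold change against WT (y axis) for the 3 knockouts (x axis), where black bars are medians by domain, grey boxes the 5th to 95th percentile of all windows of the genome and grey lines their medians. The medians of the chromosome 11 and chromosome 14 windows in DKO lie at -0.27 and -0.23, and most points of every domain lie inside the boxes.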

How the data were processed

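OG-seq values of HAP1 cells were analysed in 3 columns per genotype. The authors trimmed reads with cutadapt 2.8, mapped them to GRCh38 with Bowtie2 2.3.5.1, counted them in 1 kb bins with bedtools, scaled the input by signal extraction scaling (SES) and subtracted it. The deposited value is a score in OG reads that can be below 0, so count models were not used. In each column it was written as OG reads minus 2 input runs times their factors, which gave the depth. Interval estimates cover counting error only.

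Columns were divided by their mean over all bins. The GC-scaled signal was the value over the mean of its GC stratum (20 strata). OG-DERs, windows and genes (GENCODE v44) were fitted on all features with limma 3.58.1 in R 4.3.3, with a trend and Benjamini-Hochberg adjustment, with negative values set to 0 and a pseudocount of 1 for bins, scaled to the mean column total, and 0.1 for genes. Bins needed a value above 0 in 3 columns. Windows needed 10 bins and a mean above 0 in every column. In the bin fit each bin took the variance of the trend, so its own spread did not enter its p. Domain values were compared with exact permutation tests in Python 3.11.15. The scripts were tested on simulated data. Named genes were a fixed list by role. Column values were given for H19, KCNQ1OT1, SNRPN, MEG3, GNAS, IGF2, CDKN1C, MAGEL2, UBE3A and DLK1, and the highest and lowest window of each domain and the window with the smallest p of each knockout were named. Domains, lists and rules were chosen with earlier results of these data known. LSP1 was listed but ends outside its domain. Alternatives changed the scale, the filter, the pseudocount, the window, the threshold and the columns. RNA-seq was not analysed here.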

Additional observations from a re-analysis of the deposited data

How the results depend on the processing

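Scaling by GC content changed most. It turned chromosome 11 minus chromosome 15 to -0.0132, minus chromosome 14 to -0.0839 and minus chromosome 20 to -0.0925, and left chromosome 15 minus chromosome 20 at -0.0793, no longer past the threshold. Against the rest of the chromosome it turned chromosomes 11, 14 and 20 to -0.107, -0.0298 and -0.0432. Of the differences from WT, none of which passed a test, it turned OGG1-/ on chromosomes 11 and 14 to -0.0531 and -0.0854, DKO on chromosome 15 to -0.0244 and MUTYH-/ on chromosome 14 to 0.00899. The median over bins turned chromosome 11 minus chromosome 20 to -0.0149, MUTYH-/ on chromosome 14 to 0.00116 and DKO on chromosome 20 to 0.00133, and brought chromosome 20 against its rest past the threshold at 0.145. The ratio of recovered reads, added after the data were seen, gave 0.00142 for MUTYH-/ on chromosome 11 and 0.00316 for OGG1-/ on chromosome 15, and brought chromosome 11 minus chromosome 20 past the threshold at 0.0449. The causes were not tested.

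Leaving out each column gave differences from WT of -0.0157 to 0.0891 (OGG1-/, chromosome 11), -0.0989 to 0.0244 (MUTYH-/, chromosome 14), -0.0566 to 0.0938 (OGG1-/, chromosome 14), -0.0270 to 0.0203 (MUTYH-/, chromosome 15) and -0.0439 to 0.0170 (OGG1-/, chromosome 15). Chromosome 20 against its rest ranged from 0.0590 to 0.116 and passed the threshold without the second MUTYH-/ column, at 0.116. The DKO gene bodies called in the domains ranged from 0 to 2, with 2 called without the first DKO column.

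OG-EBs of the domains in WT, MUTYH-/, OGG1-/ and DKO numbered 1, 0, 1, 2 at the 99th percentile (0.0243, 0, 0.0243 and 0.0486 %, beside 0.145, 0.145, 0.182 and 0.136 % of all bins), 7, 1, 2, 1 when all 3 columns were required (0.170, 0.0243, 0.0486 and 0.0243 %, beside 0.102, 0.0995, 0.140 and 0.0879 %) and 32, 23, 29, 23 when centred within GC strata. Leaving out column number 1, 2 or 3, with both others required, gave 26, 25 and 30 in WT, 10, 26 and 18 in MUTYH-/, 25, 15 and 29 in OGG1-/ and 18, 11 and 14 in DKO, beside 0.447 to 0.632 % of all bins. OG-DERs numbered 48 in MUTYH-/ and 40 in OGG1-/ with no filter, 13 in DKO when GC-scaled, and 0 in each knockout with an adjusted p. Leaving out number 1, 2 or 3 gave 19, 11 and 21 in MUTYH-/, 12, 12 and 18 in OGG1-/ and 11, 21 and 14 in DKO. With the column number as a replicate block there were 23, 18 and 21 OG-DERs, and no other call changed under the block. Deviations of columns with the same number correlated with r from -0.0197 to 0.0272 over windows, so no deviation shared by number was seen. This cannot show whether columns of the same number came from the same experiment. No window, and no other gene body or start, was called under any alternative. At 21.0 to 40.2 OG reads per bin, single bins and starts of 5 bins carry a large counting error.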
